A study of Mus musculus with 6 samples.

Results

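The syndecan and glypican transcripts of 4T1 cells were followed through treatment with a kinase inhibitor. The 10 genes, the 4 syndecans Sdc1 to Sdc4 and the 6 glypicans Gpc1 to Gpc6, were taken by name from the 19938 genes of the table. Each was read from its brightest probe set carrying exactly 1 gene symbol over all arrays. Every one of the 10 had 1 such probe set. 4T1 is a mouse mammary carcinoma line, and the 6 Affymetrix arrays came from dishes given 500 nM TKI258 for 16 h or its vehicle DMSO for the same time, 3 dishes per group. Both groups were kept in DMEM with 10% serum. TKI258, or dovitinib, blocks the tyrosine kinases of the receptors for FGF, VEGF and PDGF. The labels name no genetic change, and all 6 dishes hold the same line, so the groups differ in the agent alone as labelled. The deposited log2 signals ran from 1.62 to 13.96. RNA of whole dishes was measured, and each signal is relative to the other signals of its array. More cells carrying a transcript and more of it per cell therefore cannot be told apart. A change in the total RNA of a dish would not show.

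Syndecans are transmembrane proteins and glypicans are held to the outer membrane by a lipid anchor, and both carry heparan sulfate, a long sulfated sugar chain. Growth factors bind the chain, and FGFs need it to join their receptor stably. Syndecan-1 is the main form of epithelia, syndecan-2 is typical of mesenchymal cells, syndecan-3 is best known from neurons and syndecan-4 from focal adhesions. Glypicans also modulate Hedgehog and Wnt signalling.

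After TKI258, Sdc3 transcript nearly doubled, Sdc4 was lower by a small margin, and the other 8 members did not pass the test. In limma at an adjusted p below 0.05, 1 of the 10 members was higher and 1 lower. Over all 19938 genes 27.0% passed, 14.4% higher and 12.6% lower, so 2 of 10 is not above the share of all genes. The median log2 change was 0.05 over the 10 members and 0.01 over all genes. It was 0.12 over the syndecans and 0.02 over the glypicans.

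Sdc3 was the member that changed most. Its log2 signal was 7.83, 7.87 and 7.93 on the DMSO arrays and 8.67, 8.85 and 8.90 on the TKI258 arrays. Every TKI258 array lay above every DMSO array, and the gap between the groups was wider than the spread within either. Sdc3 rose from a mean of 7.87 ± 0.05 (SD, n = 3) to 8.81 ± 0.12 (SD, n = 3), a log2 change of 0.93 (SE 0.08, limma adjusted p = 3.3e-05). As a fold this was 1.91, with a 95% interval of 1.69 to 2.15. Of all genes 2.61% had a larger absolute log2 change, and 344 genes that passed rose by more. Without any 1 array the log2 change lay between 0.88 and 1.00, and the adjusted p stayed below the threshold in all 14 alternative settings.

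Sdc4, whose cytoplasmic tail binds protein kinase C alpha, gave 11.78, 11.76 and 11.80 with DMSO and 11.60, 11.55 and 11.63 with TKI258. The groups did not overlap, but they lay close together. Sdc4 fell by 0.19 on the log2 scale (SE 0.06, limma adjusted p = 0.04996), a 1.14-fold difference, from 11.78 ± 0.02 to 11.59 ± 0.04 (SD, n = 3 each). This call lay just under the threshold and was easily lost, while the log2 change stayed between -0.20 and -0.16 without any 1 array. When DMSO replicates 1, 2 and 3 were left out one at a time the adjusted p was 0.140, 0.109 and 0.137, and it was 0.0866 and 0.142 with TKI258 replicates 1 and 2 left out, so that 1 of 10 members then passed. It was 0.0671 with the replicate number as a block, within a range of 0.00111 to 0.142 over 14 alternatives. With all arrays kept, the call was also lost on a second quantile normalization (0.0974), median centring (0.0551) and single probe sets (0.0738).

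**Figure D1:**
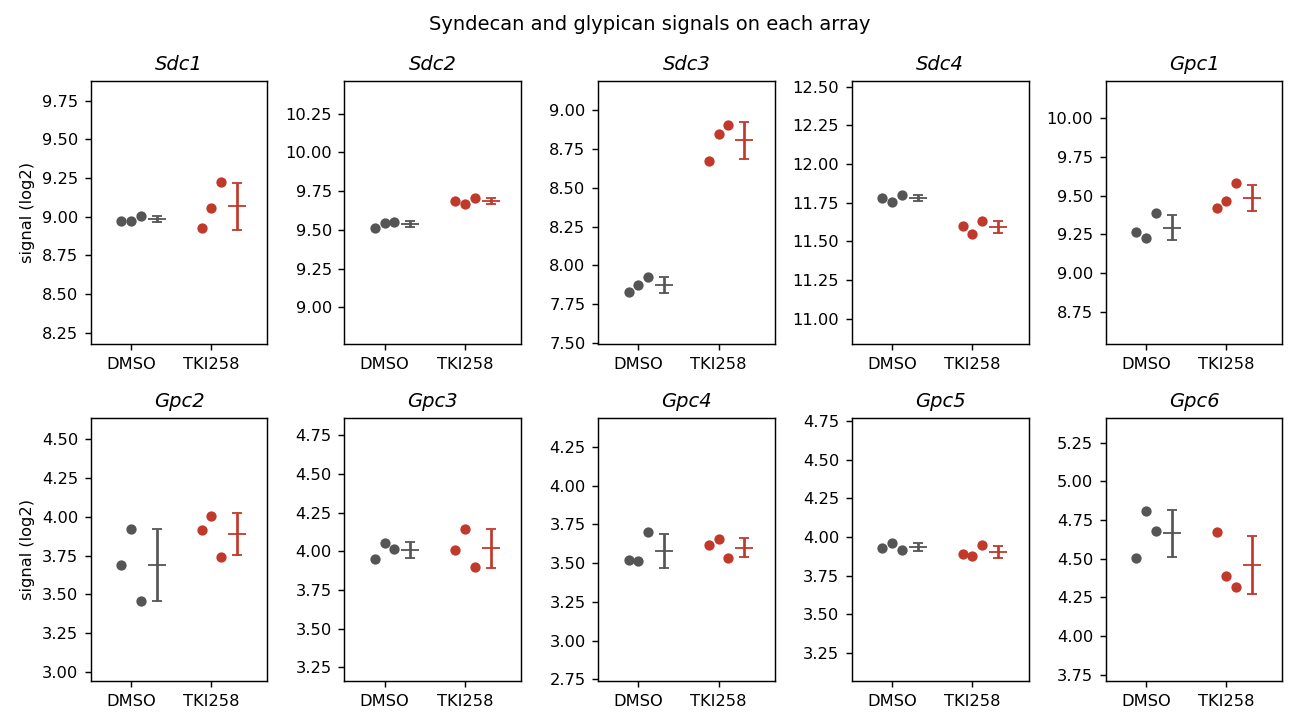
Log2 signal (vertical axis) of each syndecan and glypican on the 3 DMSO and 3 TKI258 arrays, with the group mean and SD beside the points. Every panel spans the same height in log2 units but starts at its own level, since levels of different probe sets are not comparable. The Sdc3 groups are far apart, those of Sdc4, Sdc2 and Gpc1 are apart by less, and the rest overlap.

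The windows of 250 bases before the gene start are shown for the 2 members that passed, because their transcripts went opposite ways. Both come from RefSeq on build GRCm38.p6. The Sdc3 window is chr4:130792287-130792536 on the plus strand and the Sdc4 window is chr2:164443189-164443438 on the minus strand, each written 5′ to 3′ on the gene's own strand. Capitals mark matches to 7 motifs searched on both strands, spelled out after the sequences.
Sdc3: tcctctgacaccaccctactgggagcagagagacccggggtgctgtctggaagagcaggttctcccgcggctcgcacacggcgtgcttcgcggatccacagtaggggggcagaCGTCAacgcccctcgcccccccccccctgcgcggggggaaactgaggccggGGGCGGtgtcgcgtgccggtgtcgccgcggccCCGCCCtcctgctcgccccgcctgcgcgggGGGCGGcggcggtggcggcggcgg
Sdc4: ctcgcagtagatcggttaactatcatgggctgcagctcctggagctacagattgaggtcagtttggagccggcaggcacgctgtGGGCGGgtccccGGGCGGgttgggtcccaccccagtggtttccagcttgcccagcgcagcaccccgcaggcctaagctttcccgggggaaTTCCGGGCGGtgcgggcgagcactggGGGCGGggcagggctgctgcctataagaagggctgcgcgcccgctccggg

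The Sdc3 window holds the GC box, GGGCGG or its complement CCGCCC, at 3 places and 1 match to the CRE core TGACG, read as CGTCA. The Sdc4 window holds 4 GC boxes and 1 ETS core CCGGAA, read as TTCCGG, which overlaps one of the GC boxes. Neither has an exact match to the TATA box TATAAA, the AP-1 motif TGANTCA, the MYC-type E-box CACGTG or the forkhead motif GTAAACA. Other spellings of these motifs were not searched. RefSeq windows were at hand for 7 members, which leaves out Sdc2, Gpc1 and Gpc6. The Gpc2 and Gpc5 windows run past the outermost start of the gene, so part of each lies inside it. All 7 windows hold at least 1 GC box, against 32.7% of 32851 windows of that length over all genes. The ETS core lies in 12.03% of all windows and the CRE core in 17.8%. TATAAA was found in 1 of the 7, Gpc5, and in 12.4% of all windows. The AP-1 motif lies in 6.75%, the E-box in 6.02% and the forkhead motif in 3.17% of all windows, and in none of the 7. GC content was 76.4% for Sdc3 and 68.0% for Sdc4, with a median of 52.4% over all windows, and GC-rich windows hold more matches to GC-rich motifs. These matches describe letters only.

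With Sdc3 and Sdc4, the groups of Sdc2 and Gpc1 also did not overlap, 4 of the 10 members against 40.2% of all genes, but Sdc2 and Gpc1 did not pass the test. Sdc2 gave 9.51, 9.55 and 9.55 with DMSO and 9.69, 9.66 and 9.70 with TKI258. Its log2 change was 0.15 (SE 0.06, limma adjusted p = 0.103), with a 95% interval of 0.01 to 0.28. Gpc1, a glypican known to bind FGF and VEGF through its chains, gave 9.27, 9.23 and 9.39 against 9.42, 9.46 and 9.58. The Gpc1 groups nearly touch, and its log2 change was 0.19 (SE 0.07, limma adjusted p = 0.0871, 95% interval 0.03 to 0.36). Both passed when the arrays were quantile-normalized again, when dim genes were left out and when eBayes was run with both its trend and its robust option. Adjusted p was then 0.0442, 0.0368 and 0.0312 for Sdc2 and 0.0350, 0.0377 and 0.0282 for Gpc1.

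Sdc1, the epithelial syndecan, gave 8.97, 8.97 and 9.01 with DMSO and 8.92, 9.05 and 9.23 with TKI258. The TKI258 arrays spread around the DMSO values on both sides. The log2 change was 0.08 (SE 0.08, limma adjusted p = 0.539), and its 95% interval of -0.10 to 0.27 leaves out a change as large as that of Sdc3. The value depended on single arrays, at 0.01 without TKI258 replicate 3 and 0.16 without TKI258 replicate 1.

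The other 5 glypicans had means below 5.0, the median over all probe sets, in both groups. The table has no detection calls, so they cannot be called absent, and RMA as usually run compresses changes at this level. Gpc2, a glypican of the developing nervous system, gave 3.69, 3.92 and 3.46 against 3.92, 4.01 and 3.74 (log2 change 0.20, 95% interval -0.07 to 0.47). Gpc3, whose loss causes an overgrowth syndrome in humans, gave 3.95, 4.05 and 4.02 against 4.01, 4.15 and 3.90 (log2 change 0.01, 95% interval -0.17 to 0.19). Their groups overlap. Gpc4 gave 3.52, 3.51 and 3.70 against 3.61, 3.66 and 3.53 (log2 change 0.02, 95% interval -0.15 to 0.19). Gpc5 stood at 3.93, 3.96 and 3.92 against 3.89, 3.87 and 3.95 (log2 change -0.03, 95% interval -0.17 to 0.10). Gpc6, at 4.50, 4.81 and 4.68 against 4.67, 4.39 and 4.31, had the widest interval downward (log2 change -0.20, 95% interval -0.45 to 0.04). None of these 5 intervals reaches a 2-fold change. With 1 array left out the log2 change of Gpc2 ran from 0.08 (without DMSO replicate 3) to 0.31 (without DMSO replicate 2), and that of Gpc6 from -0.31 (without TKI258 replicate 1) to -0.13 (without DMSO replicate 2 or TKI258 replicate 3). In the gene table Gpc3 and Gpc4 are neighbours with 0 protein-coding genes between them, and so are Gpc5 and Gpc6.

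**Figure D2:**
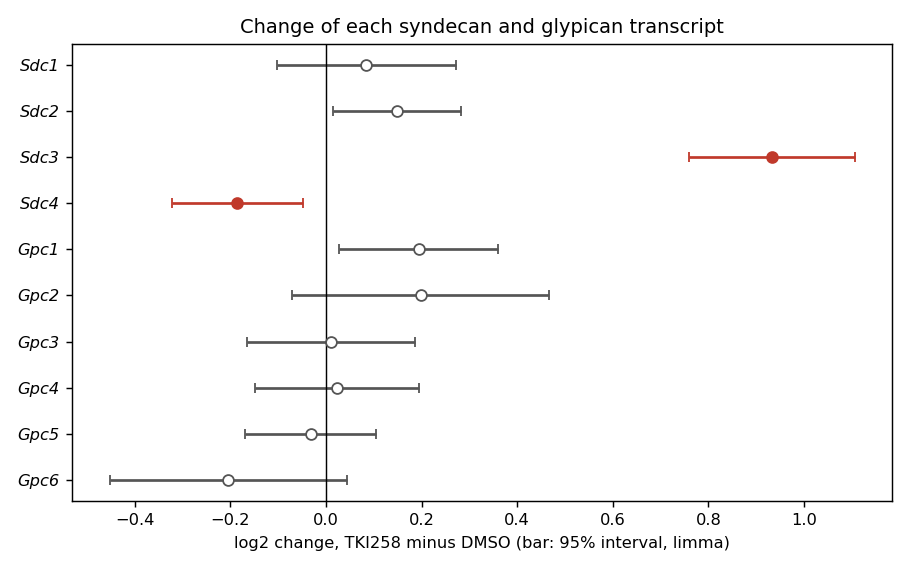
Log2 change of each member, TKI258 minus DMSO (horizontal axis), with its 95% interval from limma, n = 3 arrays per group. Filled red points passed at an adjusted p below 0.05. Sdc3 stands at 0.93 and Sdc4 at -0.19, while the other 8 lie between -0.20 and 0.20.

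The change of Sdc3 was set against that of each other member within the same array, which leaves out any shift shared by the array. The difference of log2 changes was 1.12 against Sdc4, 0.85 against Sdc1, 0.78 against Sdc2 and 0.74 against Gpc1. Against the dim glypicans it lay between 0.74 for Gpc2 and 1.14 for Gpc6, where a change on the glypican's side may be compressed, so these values largely restate the change of Sdc3. All 9 comparisons reuse the values of Sdc3, picked as the member that changed most, so they are not 9 separate results. In each the groups did not overlap. The two-sided exact permutation test gave p = 0.1, also after adjustment over the 9, the smallest value that 3 arrays against 3 allow. The unequal change is therefore given as a size, since this test could not pass the threshold.

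The genes whose values over the 6 arrays, centred on each gene's own mean, lay nearest to Sdc3 were the cyclin G2 gene Ccng2, the glutathione transferase gene Mgst2 and Ypel5. Their root mean square differences from it were 0.03, 0.03 and 0.04 log2 units and their log2 changes 0.94, 0.92 and 0.97. Nearest to Sdc4 were Nradd, the CCR4-NOT subunit gene Cnot9 and the translocon gene Sec61a1, each at 0.01 log2 units by the same measure, with log2 changes of -0.18, -0.21 and -0.20. Nradd did not pass (limma adjusted p = 0.0611) but did in 4 alternatives, with TKI258 replicate 3 left out (0.0469), a second quantile normalization (0.0311), dim genes left out (0.0212) and array weights (0.0325). The calls of Cnot9 and Sec61a1 were each lost without any 1 array other than TKI258 replicate 3, at adjusted p up to 0.112 and 0.111. These genes are listed for their likeness alone.

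Transcripts of other proteins that carry heparan sulfate always or in part changed in 5 of 10 cases, 4 higher and 1 lower, against 27.0% of all genes. The basement membrane proteoglycan gene Agrn gave 8.17, 8.14 and 8.20 against 8.82, 8.81 and 8.80. It rose by 0.64 on the log2 scale (SE 0.06, limma adjusted p = 6.32e-05). The semaphorin and VEGF co-receptor gene Nrp1 rose by 0.90, the TGF-beta co-receptor gene Tgfbr3 by 0.38 and the dim serglycin gene Srgn by 0.31. The hyaluronan receptor gene Cd44 fell by 0.72. The perlecan gene Hspg2 had a log2 change of -0.02 and did not pass, and its sign turned under 4 alternatives. The call of Srgn was lost without DMSO replicate 3 (adjusted p = 0.0611), within 0.00977 to 0.0611 over 13 alternatives.

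Of 12 genes for the linker and the heparan sulfate chain, 3 rose and 1 fell, so that 33.3% passed against 27.0% of all genes. The polymerase subunit genes Ext1 and Ext2, whose products work as a pair, rose together. Ext1 gave 9.64, 9.66 and 9.59 against 9.98, 10.10 and 10.16, a log2 change of 0.45 (SE 0.07, limma adjusted p = 0.00113). Ext2 gave 9.60, 9.55 and 9.64 against 9.95, 9.91 and 9.96, a log2 change of 0.35 (SE 0.06, limma adjusted p = 0.0025). Pxylp1 encodes the phosphatase that clears the linker xylose so that the chain can grow, and it rose by 1.18 (SE 0.07, limma adjusted p = 6.5e-06), a 2.26-fold rise. Fam20b, the kinase it opposes, had a log2 change of -0.11 and did not pass (adjusted p = 0.354). The linker galactosyltransferase gene B3galt6 fell by 0.42 (adjusted p = 0.0293). That call was lost without DMSO replicate 2 or 3 or TKI258 replicate 1 or 2, at adjusted p of 0.0710, 0.103, 0.0912 and 0.0909, in a range of 0.00176 to 0.103.

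Transcripts rose both for an enzyme that adds 6-O-sulfate and for an enzyme that removes it. FGF and its receptor need this sulfate group on the chain. The sulfotransferase gene Hs6st1 gave 7.82, 7.78 and 8.04 with DMSO and 8.42, 8.70 and 8.65 with TKI258, a log2 change of 0.72 (SE 0.10, limma adjusted p = 0.00057). The extracellular sulfatase gene Sulf2 gave 6.20, 6.09 and 6.15 against 7.33, 7.79 and 7.72. Sulf2 rose by 1.46 (SE 0.11, limma adjusted p = 2.56e-05), a 2.76-fold rise, more than any member. Sulf1, the second sulfatase gene, was dim at 3.53 and 3.52. The groups of Hs6st1 and of Sulf2 were far apart.

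Among 15 measured sulfation and epimerisation genes, Hs6st1 alone rose and 3 fell, so that 26.7% passed against 27.0% of all genes. Ndst3, an N-deacetylase and N-sulfotransferase, fell by 1.23 (SE 0.08, limma adjusted p = 6.9e-06), from 5.09 ± 0.02 to 3.87 ± 0.12 (SD, n = 3), so that its TKI258 mean lay among the dim probe sets. Its relative Ndst2 had a log2 change of -0.01 and the 2-O-sulfotransferase gene Hs2st1 of -0.11, and neither passed. The 3-O-sulfotransferase gene Hs3st1, dim in both groups, fell by 0.32, and the epimerase gene Glce by 0.23. Hs3st1 lost its call without DMSO replicate 3 (adjusted p = 0.0641) or TKI258 replicate 2 (0.0561), in a range of 0.0107 to 0.0641. Glce lost it without DMSO replicate 1, 2 or 3 or TKI258 replicate 1 (0.0534, 0.105, 0.0794 and 0.0791, range 0.00926 to 0.105). Without DMSO replicate 3 the list therefore had 2 calls in place of 4. Ndst1 had no probe set with 1 symbol and was not analysed here.

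Heparan sulfate editing and breakdown genes rose in 7 of 11 measured cases and fell in 0, with a median log2 change of 0.35. This was 63.6% of the list, where 14.4% of all genes were higher and 27.0% passed in either direction. Beside Sulf2, the lysosomal iduronidase gene Idua rose by 0.87 (SE 0.08, limma adjusted p = 7.58e-05), the glucosaminidase gene Naglu by 0.69 and the iduronate sulfatase gene Ids by 0.41. The heparanase gene Hpse, an endoglycosidase that also clips shed syndecan chains, gave 6.37, 6.43 and 6.67 against 6.68, 6.77 and 7.08. Its groups barely separate, and it did not pass (log2 change 0.35, adjusted p = 0.0534). With the replicate block its adjusted p was 0.0074, and without DMSO replicate 3 or TKI258 replicate 1 it was 0.0331 and 0.0338, in a range of 0.0074 to 0.168. Only 4 of the list passed when DMSO replicate 1 or 2 or TKI258 replicate 3 was left out.

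Precursor supply genes split into 2 higher and 2 lower of 11, so that 36.4% passed against 27.0% of all genes. Ugp2, which makes UDP-glucose, rose by 1.19 (SE 0.08, limma adjusted p = 8.18e-06) and the sulfate transporter gene Slc26a2 by 0.50. The UDP-sugar transporter gene Slc35d1 fell by 0.53, and the UDP-xylose synthase gene Uxs1 by 0.24. The Uxs1 call was lost on leaving out any array except TKI258 replicate 2, at adjusted p of 0.0775, 0.0514 and 0.133 for DMSO replicates 1, 2 and 3 and 0.100 and 0.0651 for TKI258 replicates 1 and 3. It was also lost with the replicate block (0.0514), in a range of 0.00482 to 0.133.

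Chondroitin and dermatan sulfate chains start from the same linker. Among 16 genes for their synthesis 1 rose and 1 fell, so that 12.5% passed against 27.0% of all genes. Csgalnact1, which places the first chondroitin sugar on the linker, gave 8.33, 8.32 and 8.26 against 6.75, 6.70 and 6.78. It fell by 1.56 on the log2 scale (SE 0.06, limma adjusted p = 9.69e-07), 2.95-fold, with narrow groups far apart. The sulfotransferase gene Chst12 rose by 0.36. Csgalnact2 had a log2 change of -0.08 and did not pass.

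**Figure D3:**
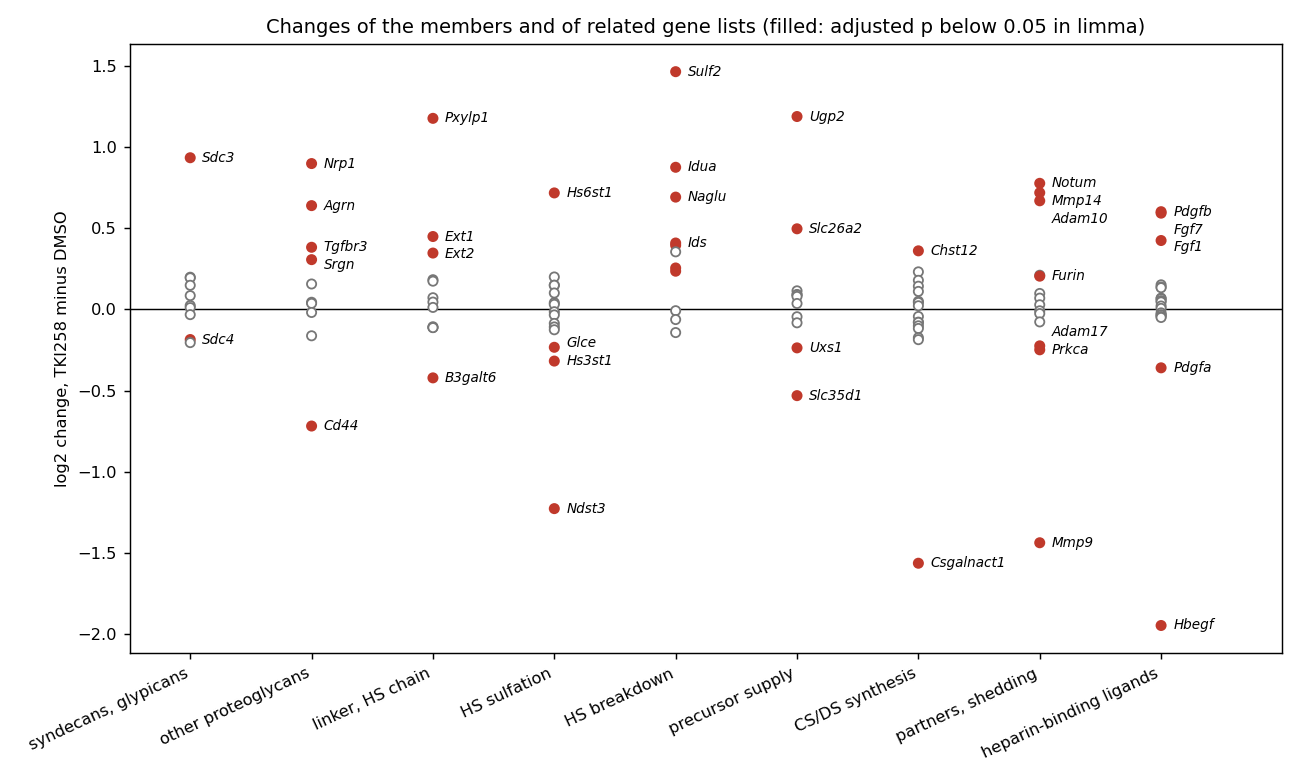
Log2 change, TKI258 minus DMSO (vertical axis), of the members and of 8 lists of related genes, 1 point per gene. HS is heparan sulfate and CS/DS chondroitin and dermatan sulfate, and filled red points passed in limma at an adjusted p below 0.05. Sdc3 is near 0.93, Sulf2 is the highest point at 1.46, and Csgalnact1 at -1.56, Mmp9 at -1.44 and Hbegf at -1.95 are the lowest.

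Syndecans are cut from the cell surface by metalloproteases, and of 14 partner, shedding and processing genes 4 rose and 3 fell. Thus 50% of this list passed, against 27.0% of all genes. The membrane protease gene Mmp14 gave 10.62, 10.65 and 10.62 against 11.34, 11.36 and 11.36, a rise of 0.72 (SE 0.06, limma adjusted p = 3.15e-05). Adam10 rose by 0.67 and Notum, a secreted enzyme first described as acting on glypicans, by 0.78, while the gelatinase gene Mmp9 fell by 1.44. The proprotein convertase gene Furin, which cleaves glypicans, rose by 0.20, and the sheddase gene Adam17 and the Sdc4 partner gene Prkca fell by 0.22 and 0.25. Sdcbp, the syntenin gene whose product binds the syndecan tail, had a log2 change of -0.03 and did not pass. Only 4 of these genes passed when any DMSO replicate (1, 2 or 3) or TKI258 replicate 2 was left out. The Furin call held only without TKI258 replicate 3 among the 6 fits that left out 1 array, and those of Adam17 and Prkca only without TKI258 replicate 1, with adjusted p up to 0.129, 0.0808 and 0.109. The calls of Furin and Prkca were also lost with the replicate block (0.0601 and 0.0536).

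Genes for ligands that bind heparan sulfate passed in 5 of 19 measured cases, 26.3% against the 27.0% of all genes. Hbegf fell by 1.95 and Pdgfa by 0.36, while Pdgfb rose by 0.60 and the dim FGF genes Fgf7 and Fgf1 by 0.59 and 0.42. The pleiotrophin gene Ptn, whose product binds syndecan-3, was dim at 3.92 in both groups. Pdgfa passed with all arrays at an adjusted p of 0.0315. It was 0.0964 and 0.104 without DMSO replicates 2 and 3 and 0.0690, 0.0798 and 0.0699 without TKI258 replicates 1, 2 and 3, in a range of 0.00343 to 0.104. Of 5 FGF receptor genes 40% passed, against 27.0% of all genes, and Fgfr1 rose by 0.30 and Fgfrl1 by 0.53.

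Markers of the labelled cell type and of other cell types were followed beside the members. Levels of different probe sets cannot be set against each other and the table has no detection calls, so these levels do not show which cell types the dishes held. Of 9 epithelial markers 4 rose and 2 fell, so that 66.7% passed against 27.0% of all genes. The E-cadherin gene Cdh1 rose by 1.09, the keratin gene Krt19 by 0.94 and the claudin genes Cldn4 and Cldn3 by 0.89 and 0.24, while the keratin genes Krt18 and Krt7 fell by 0.50 and 0.39. Krt8, the partner of Krt18 in simple epithelia, stood at 11.92 with DMSO and 11.80 with TKI258 and did not pass. The call of Cldn3 was lost without DMSO replicate 1, 2 or 3 or TKI258 replicate 1 or 3 (adjusted p = 0.0669, 0.0549, 0.104, 0.0593 and 0.0680) and in 9 of 14 alternatives in all, in a range of 0.00953 to 0.104. The mean log2 level of the epithelial list was 8.40 to 8.50 on DMSO arrays and 8.66 to 8.75 on TKI258 arrays. The log2 of its summed signal, set mostly by the brightest markers, overlapped, at 12.98 to 13.11 with DMSO and 12.92 to 13.04 with TKI258.

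Of 10 fibroblast markers 2 rose and 0 fell, so that 20% passed against 27.0% of all genes. The decorin gene Dcn rose by 2.01, from 3.77 to 5.79, and the PDGF receptor gene Pdgfra by 1.5, from 8.33 to 9.83. The collagen gene Col3a1 was at 5.39 and 5.34, and the list's mean level was 4.77 to 4.85 against 5.19 to 5.23. Of 8 macrophage markers 2 rose and 1 fell, so that 37.5% passed against 27.0% of all genes. The lysosomal membrane protein gene Cd68 rose by 0.82, from 6.70 to 7.52, and the lipopolysaccharide co-receptor gene Cd14 by 0.74, from 5.88 to 6.61, while the mannose receptor gene Mrc1 fell by 0.63, from 4.42 to 3.79. The leukocyte gene Ptprc was at 3.76 and 3.73, and the list's mean level was 4.49 to 4.50 against 4.52 to 4.63. Of 6 endothelial markers 0 passed in limma, against 27.0% of all genes, also 0 at an unadjusted p below 0.05. The mean level of these markers was 3.73 to 3.82 against 3.71 to 3.73. The 2 with the smallest p were the receptor genes Tek and Kdr, with log2 changes of -0.14 and -0.21. The part of these markers in the change of Sdc3 was not tested. No marker has a true 0 on this scale.

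**Figure D4:**
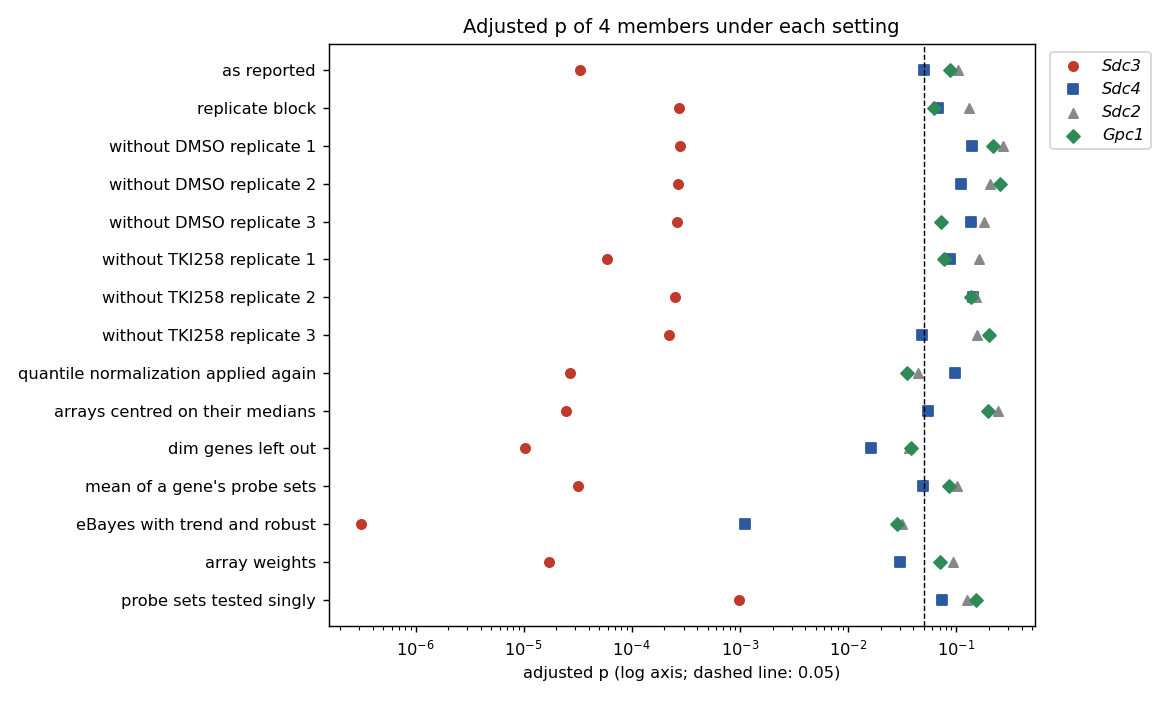
Adjusted p (horizontal log axis) of Sdc3, Sdc4, Sdc2 and Gpc1 as reported and under each of 14 alternatives, with a dashed line at 0.05. Sdc3 stays left of the line throughout, Sdc4 crosses it in 9 alternatives, and Sdc2 and Gpc1 lie left of it in 3 each.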

How the data were processed

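RNA of 6 dishes was amplified, biotin-labelled and hybridised to Affymetrix arrays, per the labels' protocols, after 750000 cells had grown for 24 h in 10 cm dishes. The deposited values are 1 log2 signal per probe set and array (35557 probe sets), made by the authors with RMA, affy and limma, tools that the submitters' processing notes name without saying what each did. The log2 scale was inferred from the values. Array medians were 4.97 to 5.04, and precision is limited by having 3 arrays per group. Names came from the platform annotation of 2016, and only the 21789 probe sets with 1 symbol were used. Arrays were grouped by title.

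TKI258 was compared with DMSO over all 19938 genes in limma 3.58.1 under R 4.3.3 (lmFit, eBayes, two-sided, Benjamini-Hochberg adjusted, threshold 0.05, no filter). The function was tested on simulated data. Log2 changes are TKI258 minus DMSO. The p-values measure the spread between dishes of 1 line. The members and lists were chosen with earlier results of these data known, so the counts are descriptions. Of each related list up to 4 passing genes per direction, those with the smallest adjusted p, are named by rule. Where none passed, the 2 with the smallest p are named. Hspg2, Fam20b, Sulf1, Ndst2, Hs2st1, Hpse, Csgalnact2, Sdcbp, Ptn, Krt8, Col3a1 and Ptprc were added after their values were seen. Alternatives were the replicate block, each array left out, a second quantile normalization, centring on array medians, leaving out dim genes, probe set means, eBayes with trend and robust, array weights, and single probe sets. The gene table of GRCm38.p6 was used for names and neighbours only, since the files name no build.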

Additional observations from a re-analysis of the deposited data

How the results depend on the processing

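Of 55 named genes that passed, 42 passed in every alternative run and 13 lost the call in at least 1, Sdc4 among them, and no called gene changed sign. Passing editing and breakdown genes with larger adjusted p were not named and are not among the 55. The number of members passing was 1 to 2 with each array left out. It was 1 with the replicate block, with arrays centred on their medians and with probe sets tested singly. With dim genes left out it was 4 of the 5 members then tested, where 5861 of 11239 genes passed. With eBayes set to trend and robust together it was 4 of 10, where 6022 of 19938 genes passed. Leaving out each array gave 2 to 4 sulfation genes, 4 to 8 editing and breakdown genes and 4 to 6 partner and shedding genes. Without dim genes fewer genes were tested. Of these, 2 of 9 sulfation genes, 4 of 12 chondroitin and dermatan sulfate genes and 3 of 5 ligands passed, beside 5861 of 11239 over all genes. With probe sets tested singly 4 of 11 editing and breakdown genes passed, beside 4266 of 19938 over all genes. The causes were not tested otherwise. Over all genes the count was 4266 to 6022. The uncalled log2 changes of Gpc3 and Gpc4 turned sign, at -0.013 and -0.00024 with centred arrays, and ran from -0.0534 to 0.0705 and from -0.0095 to 0.086 with each array left out. Of the uncalled related genes that are named here, 7 with log2 changes near 0 also turned sign. Uncalled related genes that are not named were not followed through the alternatives. With each array left out the log2 change ran from -0.127 to 0.146 for Hspg2, from -0.0504 to 0.0386 for Sulf1, from -0.0454 to 0.0183 for Ndst2, from -0.0752 to 0.0124 for Sdcbp, from -0.0445 to 0.0562 for Ptn, from -0.170 to 0.0138 for Col3a1 and from -0.0728 to 0.00602 for Ptprc. It was 0.0306 for Hspg2 with array weights, 0.00115 for Sulf1 and 0.0340 for Sdcbp with quantile normalization applied again, and -0.0176 for Ptn with centred arrays. Deviations of same-numbered dishes correlated at 0.0181, 0.0501 and 0.151, and not every array correlated best with its own number. The 3 deviations of a group are tied by their shared mean, so these correlations cannot decide whether same-numbered dishes were paired. The block gave 5364 calls over all genes against 5385, and besides Sdc4, Uxs1, Furin and Prkca it also ended the calls of Cldn3 and Sec61a1 (adjusted p = 0.0548 and 0.0522) and brought in Hpse. Dim glypicans are limited by signal over background.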
